A study of Mus musculus with 6 samples.

Results

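The genes described here make cholesterol and fatty acids or control that synthesis, in mouse cortical bone cultured with or without parathyroid hormone (PTH). They were listed by name as 31 gene symbols, and a gene was taken as measured where a symbol in the array table was equal to the listed one. Of the 31, 29 were found among the 31508 symbols of the table, with 44 of its 45281 probes. *Tm7sf2* had no probe under its symbol, and *Acaca* was listed under its older symbol *Acac*. The value of *Acac* is given but stays out of the counts, since the symbol is not the listed one.

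The bone tubes were the shafts of tibia and femur from C57BL6 mice, aged 3 months per the labels, with the ends removed, the marrow flushed out and the surface cells digested away with collagenase and trypsin. All tubes were cultured overnight with fetal calf serum and moved to fresh medium. The 3 control cultures were then left untreated and the 3 PTH cultures received Pth 1-34 at 250 nM, both for 24 h. RNA came from the pooled bones of several mice per preparation, and each preparation was hybridized to 1 Illumina bead array. The SD given with a value is the spread between 3 arrays. The SE and p-values from limma rest on the spread between arrays of that probe, moderated by that of all probes tested, and measure only that.

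Cholesterol is built from acetyl-CoA through mevalonate, farnesyl diphosphate, squalene and lanosterol. Most of its enzymes, and many of fatty acid synthesis, are transcribed under SREBP factors, which are held in the endoplasmic reticulum by Scap and the Insig proteins while sterol is plentiful and released to the nucleus when it runs low, so these genes often move together. In bone, farnesyl diphosphate synthase is known as the target of the nitrogen-containing bisphosphonates, and PTH signals through cAMP.

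No member passed the test of PTH against control by its brightest probe. Of the 26 members above background on enough arrays to be tested, 0 were called higher and 0 lower (limma, adjusted p under 0.05), where 0.685% of all 11979 genes tested were called higher and 1.04% lower. At an unadjusted p under 0.05, limma gave 0 members higher and 2 lower, *Fdps* and *Insig2*, where 7.51% of all genes tested were higher and 7.39% lower, so that 2 of 26 is about the share over all genes. The estimates lay above 0 for 13 members and below 0 for 13, with a median log2 fold change of -0.005 against 0.0053 over all genes, and they ran from -0.55 to 0.22. The 1 probe of any member that passed was the second probe of *Insig2*, which was lower with PTH. The shares above are by the brightest probe. A count by any tested probe was not made for all genes, so this probe has no share to be set against.

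All 3 PTH arrays lay above all 3 control arrays for 0 members, where 11.1% of all genes tested did so. All 3 PTH arrays lay below all 3 control arrays for 4 members, *Insig2*, *Fdps*, *Insig1* and *Ebp*, where 10.8% of all genes did so. These orders are of the normalized signals. As deposited, before any normalization, the groups of all 4 overlapped. The smallest p that an exact two-sided permutation test allows for 1 gene with 3 arrays in each group is 0.1.

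**Figure D1:**
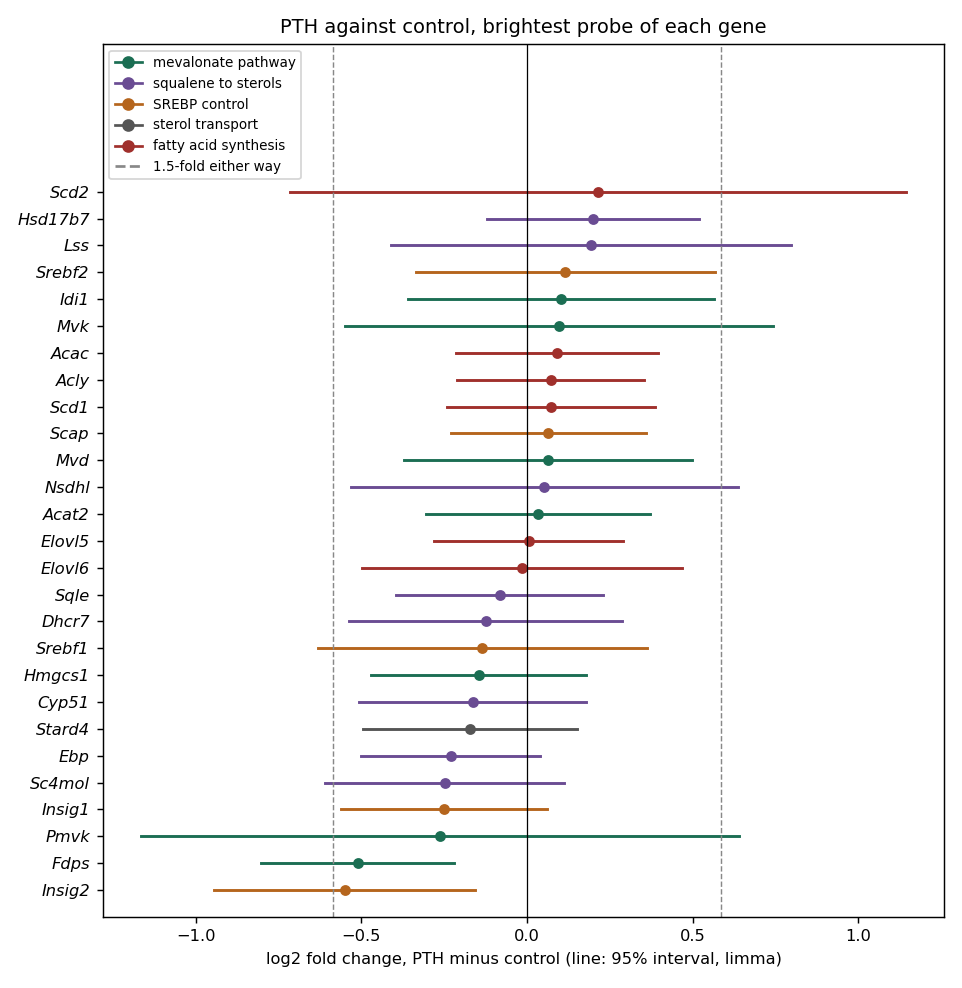
Log2 fold change of PTH minus control (horizontal axis) for the brightest probe of each of the 26 members tested and of *Acac*, coloured by role, with the 95% interval from limma as a line and dashed lines at 1.5-fold either way. Only the intervals of *Insig2* and *Fdps* lie wholly on one side of 0, and those of *Scd2* and *Pmvk* are the widest.

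The upstream sequences of 4 members are shown, those of *Insig2*, *Insig1* and *Ebp* because their PTH arrays lay below their control arrays, and that of *Hmgcs1* because it was the only member with a match to the sterol regulatory element searched. Each is the 250 bases before a transcription start in RefSeq (GRCm38.p6), written 5′ to 3′ on the gene's strand. *Insig2* has several annotated starts, and the one used is the farthest upstream. Capitals mark matches, on either strand, to the sterol regulatory element TCACNCCAC, bound by SREBP, to the CCAAT box, bound by NF-Y, and to TGACG, the half-site of the cAMP response element.
Insig2, chr1:121332590-121332839, minus strand: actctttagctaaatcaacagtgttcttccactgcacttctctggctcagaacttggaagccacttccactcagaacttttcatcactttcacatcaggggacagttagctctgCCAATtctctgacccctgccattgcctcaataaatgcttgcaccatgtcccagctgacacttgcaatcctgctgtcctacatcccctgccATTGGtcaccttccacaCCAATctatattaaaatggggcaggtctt
Insig1, chr5:28071162-28071411, plus strand: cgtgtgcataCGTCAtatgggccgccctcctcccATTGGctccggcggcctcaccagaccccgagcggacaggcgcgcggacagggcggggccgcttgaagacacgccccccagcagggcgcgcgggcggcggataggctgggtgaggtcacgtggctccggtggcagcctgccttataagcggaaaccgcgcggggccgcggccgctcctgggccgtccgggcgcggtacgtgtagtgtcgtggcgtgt
Ebp, chrX:8193513-8193762, minus strand: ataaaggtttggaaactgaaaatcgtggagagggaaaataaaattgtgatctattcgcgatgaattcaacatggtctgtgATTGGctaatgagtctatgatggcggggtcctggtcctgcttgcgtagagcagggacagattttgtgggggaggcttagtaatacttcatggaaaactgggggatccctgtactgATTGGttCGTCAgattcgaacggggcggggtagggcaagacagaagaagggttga
Hmgcs1, chr13:119690101-119690350, plus strand: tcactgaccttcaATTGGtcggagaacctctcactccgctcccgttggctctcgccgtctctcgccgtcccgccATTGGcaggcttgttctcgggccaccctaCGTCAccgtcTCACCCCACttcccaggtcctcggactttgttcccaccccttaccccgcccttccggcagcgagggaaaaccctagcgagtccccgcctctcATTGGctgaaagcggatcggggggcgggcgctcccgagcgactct

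Upstream sequences were given for 25 of the 31 members, 33 in all, and for none of *Fdps*, *Fdft1*, *Sqle*, *Stard4*, *Scd1* and *Scd2*. The CCAAT box was present in 21 of the 33 (63.6%), where 33.8% of the 32851 sequences of the same length held it. TGACG was present in 8 of the 33 (24.2%), against 17.8% of all, and the sterol regulatory element in 1 (3.03%), against 1.05% of all. These are matches of letters only. The sequence of *Insig2* above holds 3 CCAAT boxes and neither other motif, while the sequences before its other annotated starts hold no CCAAT box and 1 of them holds TGACG. That of *Insig1* holds 1 CCAAT box and 1 TGACG, and that of *Ebp* 2 CCAAT boxes and 1 TGACG. That of *Hmgcs1* holds 3 CCAAT boxes, with TGACG and the sterol regulatory element close together between them.

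**Figure D2:**
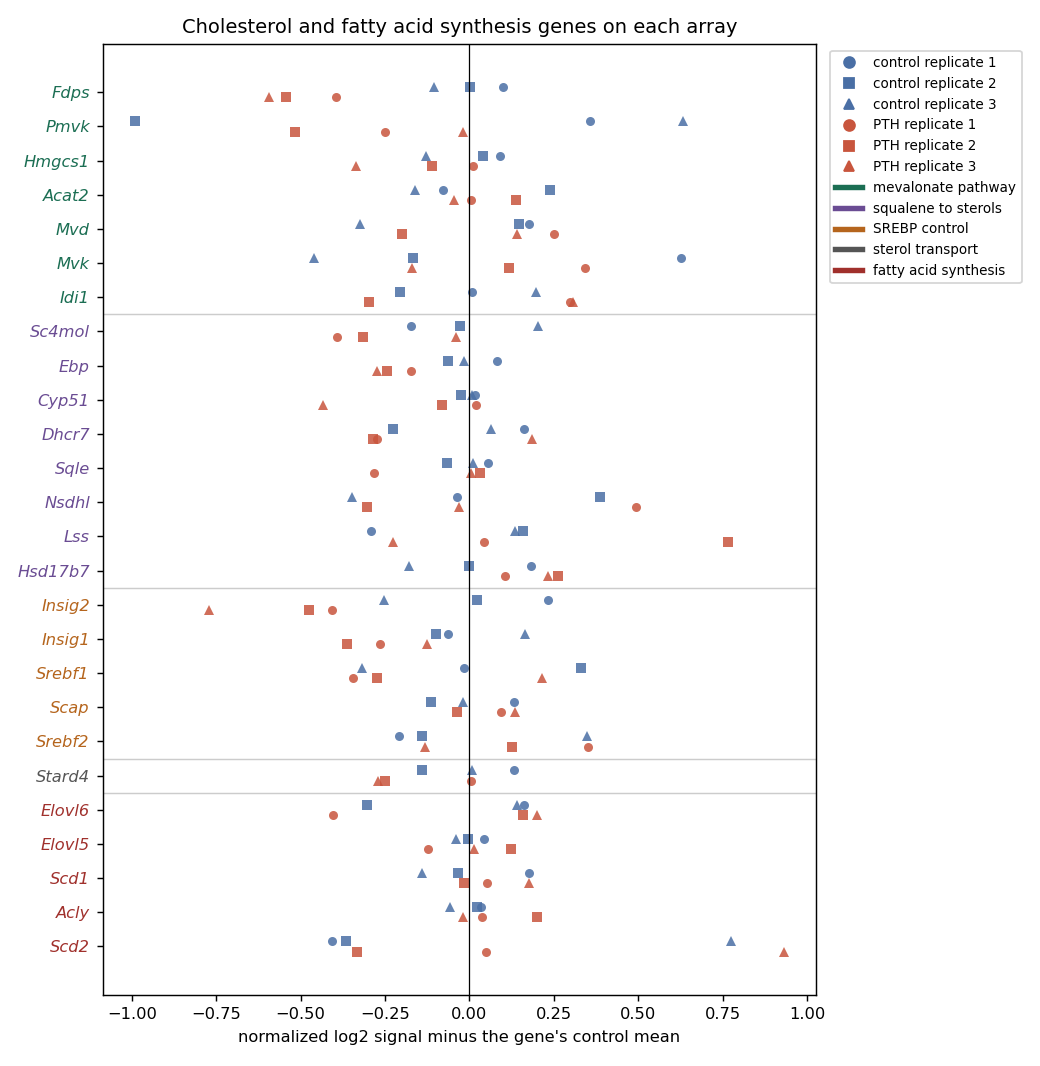
Normalized log2 signal of each of the 26 tested members (rows, grouped by role) minus the mean of that gene's 3 control arrays (horizontal axis), with 1 point per array, blue for control and red for PTH, and a shape for each replicate number. *Insig2*, *Fdps*, *Insig1*, *Ebp*, *Sc4mol* and *Pmvk* are below their control mean on all 3 PTH arrays, and *Hsd17b7* is above its own on all 3. *Scd2* is highest on replicate 3 of both groups.

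Signals below are on the log2 scale after background correction and quantile normalization, and compare arrays for 1 probe, not genes with each other. The 7 members of the mevalonate branch were all tested, with 4 estimates above 0 and 3 below and a median of 0.03. *Fdps*, which makes farnesyl diphosphate, read 10.37, 10.27 and 10.17 in control and 9.88, 9.73 and 9.68 with PTH. The highest PTH array was below the lowest control array. The means were 10.27 ± 0.10 and 9.76 ± 0.10 (SD, n = 3 each), a log2 fold change of -0.51 (SE 0.13, 95% interval -0.80 to -0.22) that missed the threshold in limma (adjusted p = 0.111). It passed in limma with an adjusted p of 0.00475 when the background was not corrected, 0.0323 with an offset of 50, and 0.0466 when only probes above background at a detection p under 0.01 on all 6 arrays were tested. It did not pass with median scaling (-0.36, adjusted p = 0.978, limma), without the detection filter (adjusted p = 0.149) or with any 1 array left out (adjusted p from 0.168 to 0.31). In the signals as deposited, before any normalization, the groups overlapped, from 1157 to 1322 in control and from 855 to 1255 with PTH.

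*Hmgcs1*, the cytosolic HMG-CoA synthase, read 11.51, 11.46 and 11.29 in control and 11.43, 11.31 and 11.08 with PTH. The groups overlapped, and the log2 fold change was -0.15 (SE 0.14, adjusted p = 0.704, limma). *Acat2*, the cytosolic thiolase of the first step, read 6.76, 7.08 and 6.68 in control and 6.84, 6.98 and 6.79 with PTH. Its log2 fold change was 0.03, and a near-identical paralog may share its probe's signal. The kinases *Mvk* and *Pmvk*, which phosphorylate mevalonate and its product, were dim, each above background on 2 of 3 control arrays. *Pmvk* was also above background on 2 of 3 PTH arrays, read 5.91, 4.56 and 6.18 in control and 5.30, 5.03 and 5.53 with PTH, and its interval from -1.17 to 0.64 gave little precision. The log2 fold changes of *Mvk*, of the decarboxylase *Mvd* and of the isomerase *Idi1* were 0.10, 0.06 and 0.10, each with overlapping groups.

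Of the 11 members that take farnesyl diphosphate through squalene and lanosterol to cholesterol, 10 were on the array and 8 were tested, with 3 estimates above 0, 5 below and a median of -0.10. *Ebp*, the sterol isomerase, read 9.76, 9.61 and 9.66 in control and 9.50, 9.43 and 9.40 with PTH. The groups did not overlap, yet the log2 fold change of -0.23 (SE 0.12, adjusted p = 0.42, limma) was not past the threshold. As deposited, the signals of *Ebp* overlapped, from 778 to 886 in control and from 688 to 1047 with PTH. *Sc4mol* (now *Msmo1*), the sterol C4-methyl oxidase, read 7.19, 7.33 and 7.56 in control and 6.97, 7.05 and 7.32 with PTH. The groups overlapped, and its estimate was -0.25 (SE 0.16). *Cyp51*, the lanosterol demethylase, read 7.76, 7.72 and 7.76 in control and 7.77, 7.67 and 7.31 with PTH. Its estimate of -0.16 came with 1 low PTH array, replicate 3, while the other two lay close to the control arrays.

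*Sqle*, squalene epoxidase, which catalyses a rate-limiting step, read 8.85, 8.73 and 8.80 in control and 8.51, 8.83 and 8.80 with PTH, a log2 fold change of -0.08, and its second probe gave 0.07. Here too a single PTH array, replicate 1, lay low. *Hsd17b7*, the sterol ketoreductase, had the highest estimate of the branch at 0.20 (SE 0.14, adjusted p = 0.575, limma), with control arrays at 8.60, 8.41 and 8.23 and PTH arrays at 8.52, 8.68 and 8.65. The log2 fold changes of *Lss*, which cyclises squalene epoxide to lanosterol, and *Dhcr7*, the last reductase, were 0.19 and -0.12. *Dhcr7* was dim, above background on 2 of 3 control arrays and 1 of 3 PTH arrays. *Nsdhl*, a decarboxylating dehydrogenase, had 3 tested probes that gave 0.05, 0.44 and -0.11, none past the threshold. *Fdft1*, squalene synthase, was above background on 1 control array and no PTH array, and *Sc5d*, the sterol desaturase, on none, so neither was tested.

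The 5 genes that control SREBP were all tested, with 2 estimates above 0, 3 below and a median of -0.13. *Insig2* encodes a membrane protein of the endoplasmic reticulum that holds the SREBP and Scap complex there. Its brightest probe read 9.68, 9.47 and 9.20 in control and 9.04, 8.98 and 8.68 with PTH. Its second probe read 9.41, 9.60 and 9.55 in control and 8.87, 8.75 and 8.74 with PTH. On both probes the groups were apart, with PTH lower and a wider gap on the second. The brightest probe gave means of 9.45 ± 0.24 and 8.90 ± 0.19 (SD, n = 3 each) and a log2 fold change of -0.55 (SE 0.17, 95% interval -0.94 to -0.16, adjusted p = 0.188, limma). The second gave 9.52 ± 0.10 and 8.79 ± 0.07 and a log2 fold change of -0.73 (SE 0.12, 95% interval -1.01 to -0.45), past the threshold at an adjusted p of 0.0322 in limma. Without background correction the brightest probe passed as well, with an adjusted p of 0.0191 in limma. A further probe was above background on no array.

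The call on the second *Insig2* probe was lost when any 1 array was left out, with adjusted p from 0.0818 to 0.138 and log2 fold changes from -0.78 to -0.69, and with median scaling in place of quantile normalization (-0.56, adjusted p = 0.747, limma). As deposited, the signals of this probe overlapped, from 628 to 855 in control and from 468 to 694 with PTH. In bulk bone RNA, fewer cells of a type and less RNA per cell cannot be told apart.

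**Figure D3:**
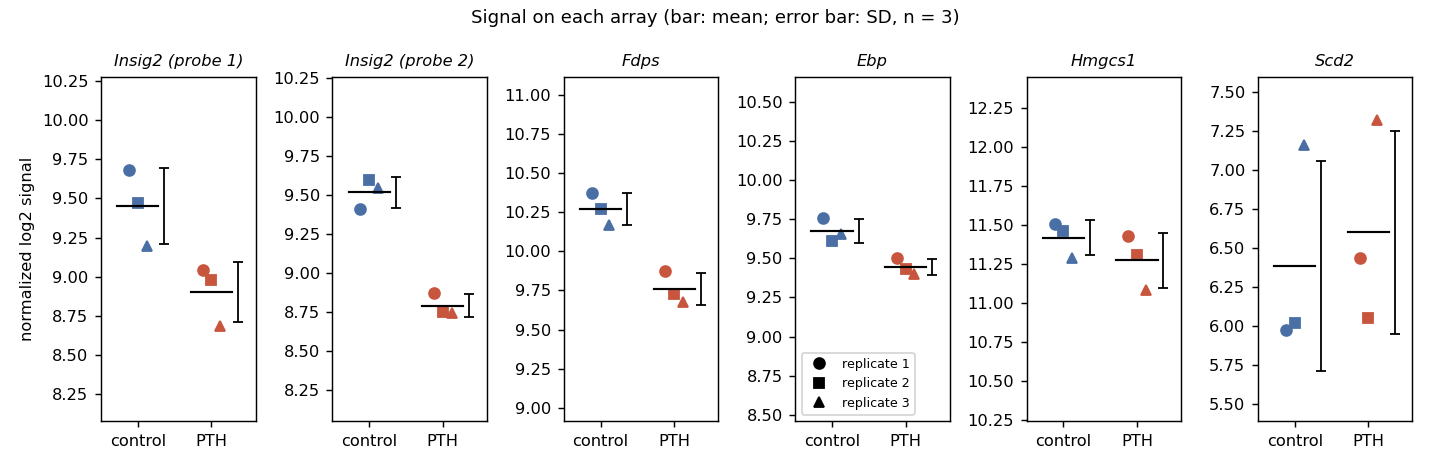
Normalized log2 signal (vertical axis, each panel with its own range of the same span) of *Insig2* by 2 probes, *Fdps*, *Ebp*, *Hmgcs1* and *Scd2* on each array, with the mean as a bar and the SD as an error bar (n = 3 per group). The groups are apart for both *Insig2* probes, *Fdps* and *Ebp*, overlap for *Hmgcs1*, and for *Scd2* the replicate 3 arrays of both groups are the highest.

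*Insig1*, a relative of *Insig2* that is itself transcribed under SREBP, read 8.72, 8.69 and 8.95 in control and 8.52, 8.43 and 8.66 with PTH. All PTH arrays were below all control arrays, by little, and the log2 fold change was -0.25 (SE 0.13, adjusted p = 0.449, limma). As deposited, the signals of *Insig1* overlapped, from 432 to 576 in control and from 388 to 662 with PTH. Its 2 other tested probes disagreed in direction, at -0.39 and 0.42. *Srebf2*, which encodes the factor that mainly drives sterol genes, read 5.86, 5.93 and 6.41 in control and 6.42, 6.19 and 5.94 with PTH, a log2 fold change of 0.12 with overlapping groups. *Srebf1*, which encodes the factors that mainly drive fatty acid genes, was above background on 3 control and 2 PTH arrays and gave -0.13. *Scap*, the escort protein of SREBP, read 7.86, 7.61 and 7.71 in control and 7.82, 7.69 and 7.86 with PTH, a log2 fold change of 0.06. *Stard4*, a carrier of cholesterol between membranes and the only transport gene among the members, read 7.80, 7.52 and 7.67 in control and 7.67, 7.42 and 7.39 with PTH, a log2 fold change of -0.17.

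**Figure D4:**
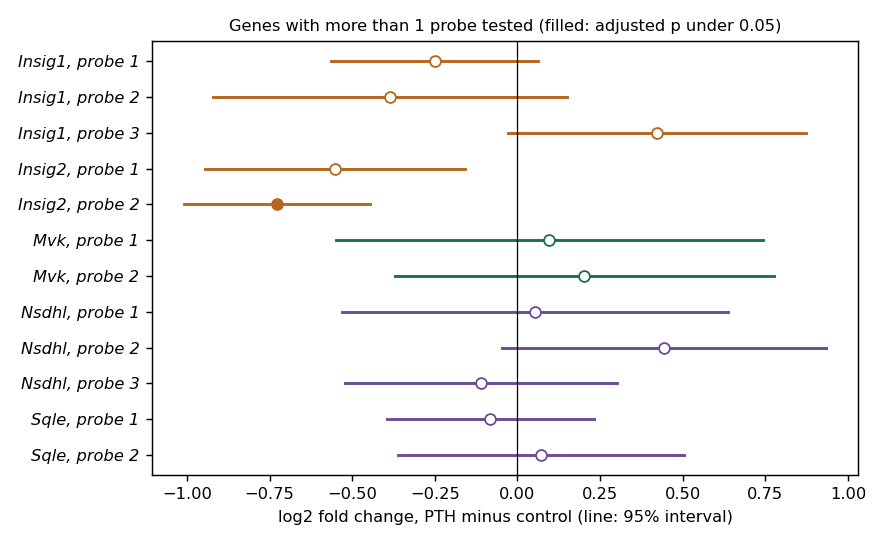
Log2 fold change of PTH minus control with its 95% interval from limma for each tested probe of the members with more than 1 tested probe, filled where the adjusted p was under 0.05. The 2 probes of *Insig2* both lie below 0, at -0.55 and -0.73, while the probes of *Insig1*, *Nsdhl* and *Sqle* fall on both sides of 0.

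Of the 7 fatty acid genes, 6 were on the array under the listed symbol and 5 were tested, with 4 estimates above 0, 1 below and a median of 0.07. *Acly*, which makes cytosolic acetyl-CoA from citrate, read 10.46, 10.44 and 10.36 in control and 10.46, 10.62 and 10.40 with PTH, an estimate of 0.07 (SE 0.12). *Elovl5*, an elongase of polyunsaturated fatty acids, read 10.02, 9.97 and 9.93 in control and 9.85, 10.10 and 9.99 with PTH. Its log2 fold change was 0.0049 with a 95% interval from -0.28 to 0.29. The groups overlapped for both genes. *Scd1*, a stearoyl-CoA desaturase, read 8.53, 8.32 and 8.21 in control and 8.41, 8.34 and 8.53 with PTH, a log2 fold change of 0.07. The related desaturase *Scd2* read 5.98, 6.02 and 7.16 in control and 6.44, 6.05 and 7.32 with PTH, so the arrays numbered 3 were highest in both groups and its estimate of 0.22 had an SE of 0.40. *Elovl6*, which elongates palmitate, gave -0.01. *Acac*, the older symbol of acetyl-CoA carboxylase, gave 8.52 ± 0.06 and 8.61 ± 0.16 (SD, n = 3 each), a log2 fold change of 0.09 (SE 0.13, adjusted p = 0.813, limma). *Fasn*, fatty acid synthase, was above background on 1 control array and no PTH array and was not tested.

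The precision differed between members. The 95% interval stayed inside a 1.5-fold change either way for 17 of the 26 tested, and inside a 2-fold change for 24, all but *Pmvk* and *Scd2*. The 9 that reached past 1.5-fold were *Fdps*, *Insig2*, *Lss*, *Mvk*, *Nsdhl*, *Pmvk*, *Sc4mol*, *Scd2* and *Srebf1*. All these intervals are for the normalized signal. The offset added before log2 draws fold changes of dim probes toward 0, so a narrow interval there does not bound the change in RNA. Dim members inside 1.5-fold included *Dhcr7*, *Elovl6*, *Mvd* and *Idi1*, with control means of 5.16, 5.83, 5.77 and 5.84. The width to either side of the estimate had a median of 0.35 on the log2 scale and ran from 0.27 to 0.93. The estimate itself was under 0.3 in size for 24 of the 26, and 22 were above background on all 6 arrays.

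**Figure D5:**
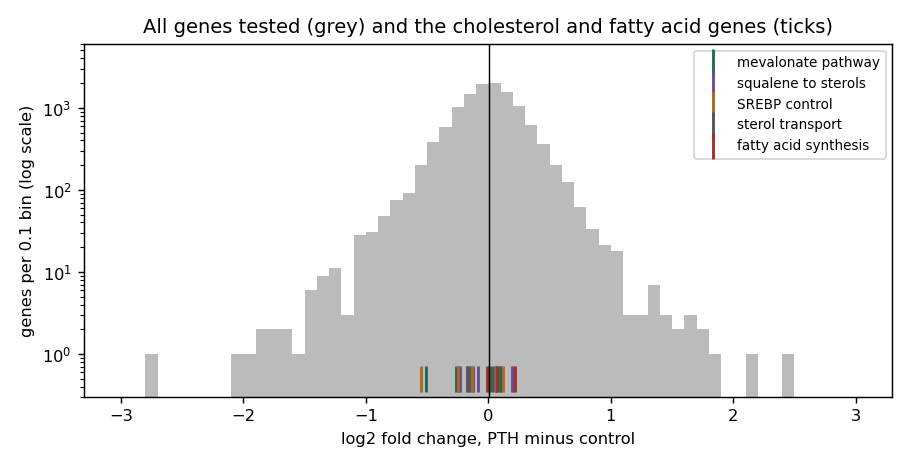
Number of genes (vertical axis, log scale) by log2 fold change of PTH minus control (horizontal axis) over all 11979 genes tested in grey, with the 26 members as ticks coloured by role. The members' median of -0.005 lies beside the median of all genes, 0.0053, and *Insig2* and *Fdps* are the members farthest out.

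Of 36 further genes of sterol and fatty acid metabolism, 33 were on the array and 24 were tested, with 0 called in either direction by limma. At an unadjusted p under 0.05, 1 was higher and 3 were lower, where 7.51% and 7.39% of all genes were, and the median log2 fold change was -0.05. The 4 genes at an unadjusted p under 0.05, picked after their values were seen, were *Npc2*, a lysosomal sterol carrier, at 0.35, and *Ch25h*, which makes the Insig ligand 25-hydroxycholesterol, *Abcg1*, a sterol exporter, and *Nr1h2*, an oxysterol receptor, at -0.56, -0.49 and -0.35. *Abcg1* was dim, with means of 5.26 and 4.78, and was above background on 3 control arrays and 1 PTH array.

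Median signals over all probes ran from 111.3 to 128.9, with 34.2% to 38.4% of probes above background. Most probes were thus at background, and these medians do not compare the bright probes. As deposited, most bright members were highest on PTH replicate 3, also some whose normalized signal was lower with PTH. *Acly* read 1978.5 there and 1226 to 1711.5 on the other arrays, and *Elovl5* 1510.9 there and 840.5 to 1222.6. *Ebp* read 1047 there and 688.4 to 886 on the other arrays, and *Insig1* 662 there and 387.8 to 576.1. The lower PTH readings of *Ebp* and *Insig1* are thus those of normalized signals. *Fdps* and *Insig2* were highest on control replicate 2. Marker genes of several cell types moved with PTH, and their part in the values above was not tested. The summed signal of 9 tested osteocyte markers was 27388 to 29160 in control and 17217 to 19103 with PTH, with 2 called lower, *Ibsp* and *Mepe*. Most of that sum came from *Col1a1* and *Ibsp*, with control means of 13.61 and 12.52 on the log2 scale. *Dmp1* and *Sost*, both at a log2 fold change of -1.21 and not called, added little to it. *Gp38*, of the same list, lay the other way, at 11.12 ± 0.15 in control and 11.82 ± 0.12 with PTH (SD, n = 3 each), not past the threshold in limma (adjusted p = 0.056). The summed signal of 6 neutrophil markers was 50605 to 51436 in control and 32906 to 37393 with PTH, with 3 called lower. That of 2 red cell markers was 8521 to 9978 and 2329 to 2606, both called lower. That of 4 osteoclast markers was 11778 to 13282 and 15858 to 20464, with 3 called higher. Of 12 symbols listed as adipocyte markers, genes of a cell type known for fatty acid synthesis, 10 were on the array. Of these, 4 were tested and 0 called by limma, with 1 higher (*Cfd*, 0.46) and 2 lower (*Pparg*, -0.77, and *Lep*, -0.56) at an unadjusted p under 0.05. *Cfd* and *Lep* were dim. *Cfd* was above background on 1 of 3 control arrays, and *Lep* on 1 of 3 PTH arrays, with overlapping groups for *Lep*. The summed signal of the 4 tested, nearly all from *Lpl*, was 1970 to 2266 in control and 2163 to 2318 with PTH, and *Fabp4*, *Plin* and *Cidec* were above background on no array. Macrophage (5 tested), endothelium (5) and muscle (1) markers had 0 called, with 1 macrophage marker higher and 1 lower at an unadjusted p under 0.05.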

How the data were processed

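Total RNA from 3 control and 3 PTH preparations was measured on Illumina mouse bead arrays. The authors deposited, for each probe and array, a linear signal intensity without normalization and a detection p-value against negative control probes, made with GenomeStudio per the labels (version not given in the sources used here). Samples were grouped by their labels. All columns of sample values were used. Signals were background-corrected (normexp, offset 16), quantile-normalized and taken to log2 with neqc in limma 3.58.1 (R 4.3.3). The 16214 probes with a detection p under 0.05 on at least 3 of 6 arrays, covering 11979 genes, were tested with lmFit and eBayes, and p-values were adjusted over all of them (Benjamini-Hochberg). A gene was counted by its brightest tested probe, at an adjusted p under 0.05. Scripts were tested on simulated data. The number of arrays limits the precision.

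The members, the other lists and the tests were chosen with earlier results of these data known. Array values were to be given for members called, or with groups apart and a log2 fold change of at least 0.4 in size, and other members' array values were added after they were seen. Marker lists covered osteocyte, adipocyte, osteoclast, neutrophil, macrophage, red cell, muscle and endothelium. Alternatives were quantile normalization without background correction, an offset of 50, cyclic loess, median scaling, a stricter or no detection filter, a replicate block, array weights, any tested probe in place of the brightest, an unadjusted p, leaving out each array and, chosen after seeing the data, leaving out both arrays numbered 3. Slides are not named in the sources used here, so no slide block was fitted, and the differential score used by the authors was not rerun. Some genes of the pathway are not reported here.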

Additional observations from a re-analysis of the deposited data

How the results depend on the processing

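The count of members called lower was 0 of 26 tested. It became 2 with quantile normalization without background correction (*Fdps* and *Insig2*) and 1 with an offset of 50 (*Fdps*). With the stricter detection filter it was 1 of 19 tested (*Fdps*). It was 1 when any tested probe could make the call (*Insig2*) and 2 at an unadjusted p. Genes called lower, 125 of 11979, became 315 and 221 with the first pair of settings and 183 of 8676 with the stricter filter. At an unadjusted p, 7.39% of all genes were lower. The count by any tested probe was made for the members only. The count called higher was 0 under every alternative run. Genes called in all, 207, became 589 and 408 with the first pair of settings, 340 with the stricter filter, 104 with median scaling, 44 with the replicate block, 50 to 78 with 1 array left out and 0 with both arrays numbered 3 left out, an alternative chosen after seeing the data. Median scaling moved the median of all genes to 0.1162 and that of the members to 0.10, a difference of -0.013. The replicate numbers did not pair the arrays throughout (r of same-numbered arrays 0.067, 0.064 and, for number 3, 0.273, against -0.142 to 0.073 for other pairs), although the arrays numbered 3 went together, each being extreme in its group in the same direction for 34.7% of genes against 23.3% and 22.9% for numbers 1 and 2, and the replicate block called 0 members by the brightest probe and gave the second *Insig2* probe the same -0.73 at an adjusted p of 0.0972 in limma. With both arrays numbered 3 left out, that probe gave -0.69 (adjusted p = 0.222, limma).

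Of 398 values of single genes under alternatives, 362 kept their direction and their side of the threshold. Estimates near 0 changed sign with both arrays numbered 3 left out in *Acat2* (-0.0082), *Elovl5* (-0.0203), *Mvd* (-0.14), *Nsdhl* (-0.0805) and *Scd1* (-0.0529), with cyclic loess in *Elovl5* (-0.0099) and *Elovl6* (0.0246), with median scaling in *Elovl6* (0.0939) and *Sqle* (0.07), and with array weights in *Elovl6* (0.0095) and *Nsdhl* (-0.0111). With each array left out in turn, log2 fold changes crossed 0 in *Acac* (-0.0002 to 0.16), *Acat2* (-0.0477 to 0.15), *Elovl5* (-0.0546 to 0.0692), *Elovl6* (-0.17 to 0.18), *Lss* (-0.0924 to 0.40), *Mvd* (-0.10 to 0.20), *Mvk* (-0.13 to 0.41), *Nsdhl* (-0.17 to 0.25), *Pmvk* (-0.76 to 0.054), *Scd2* (-0.14 to 0.60), *Sqle* (-0.14 to 0.0192), *Srebf1* (-0.31 to 0.0311) and *Srebf2* (-0.0016 to 0.29). Those of the other members tested did not cross 0. Among these were *Fdps* (-0.57 to -0.46), *Insig2* (-0.68 to -0.43), *Ebp* (-0.26 to -0.19), *Insig1* (-0.31 to -0.17) and *Hsd17b7* (0.11 to 0.29). With median scaling and all arrays kept, the same genes gave -0.36, -0.38, -0.05, -0.10 and 0.34. The causes were not tested.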
